A study of Mus musculus with 16 samples.

Results

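Chemokine receptors are cell surface proteins with which a cell senses chemokines, the small secreted proteins that direct the movement of leukocytes. The genes described here are Ccrl2, Cxcr4, Cx3cr1, Ccr1 and Ccr2, 5 of the 23 chemokine receptor genes that were measured and of 19938 genes in all. They were listed by name with earlier results of these data known, and each is read by a single probe set of the array. Ccrl2 is also among the genes that the study picked out on these arrays, so its values are not independent evidence of that choice. RNA came from mouse embryo fibroblasts (MEFs) of C57Bl/6 x 129Sv strain and was hybridised to 16 Affymetrix arrays. The 4 groups of 4 arrays were SIMPL-/- MEFs (IRAK1BP1-/- in the labels) with TNFα, untreated SIMPL-/- MEFs, littermate MEFs (WT in the labels) with TNFα, and untreated littermate MEFs. The dose of recombinant human TNFα was 10 ng/ml, and the exposure is 45 min in the labels and longer in the methods. By the methods, fibroblasts of each genotype were grown 4 separate times, each time out of 1 embryo, but no source says which arrays share an embryo, and p-values measure only the spread between these arrays.

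Most chemokine receptors span the membrane several times and signal through inhibitory G proteins toward actin and cell movement. Their genes are best known from leukocytes. Cx3cr1 is the receptor of fractalkine (Cx3cl1) and marks monocytes, macrophages and microglia, Ccr2 is the receptor of Ccl2 and brings monocytes out of the marrow, and Ccr1 binds Ccl3 and Ccl5 among others. Cxcr4, the receptor of Cxcl12, is expressed far more widely and holds haematopoietic progenitors in the marrow. Ccrl2 is an atypical member that binds chemerin (the product of Rarres2), does not signal as the others do, and is known as a gene that inflammatory stimuli induce. SIMPL, encoded by Irak1bp1, is a co-activator of the NF-κB subunit p65, and the arrays were made to ask which TNFα responses need it.

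All values below are log2 values after robust multi-array averaging (RMA), a difference of 1 is a doubling, and values of different genes are not set against each other because probes differ in brightness. The medians of the arrays ran from 6.67 to 6.76, and arrays of a group correlated at 0.995 or above. Irak1bp1 was between 5.08 and 5.60 on SIMPL-/- TNFα arrays and between 5.16 and 5.62 on untreated SIMPL-/- arrays, against 7.65 to 8.03 on littermate TNFα arrays and 7.85 to 8.21 on untreated littermate arrays, so every array had the level its label calls for. Markers of macrophages and other myeloid cells moved with genotype, and in RNA of a whole culture fewer cells of a type and less RNA per cell cannot be told apart. Over the 27 measured of 28 listed, the mean level was 7.35 to 7.48 on SIMPL-/- TNFα arrays and 7.34 to 7.49 on untreated SIMPL-/- arrays, against 9.40 to 9.84 and 9.33 to 9.71 on littermate arrays with and without TNFα. Fibroblast markers, 14 of 15 measured, averaged 11.8 in both SIMPL-/- groups and 12.1 in both littermate groups.

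The promoters of the genes that moved with TNFα are shown first, since NF-κB is a factor that TNFα activates and SIMPL assists. Each is the 250 bases before an annotated RefSeq start, read 5′ to 3′ on the gene's own strand (GRCm38.p6), with matches to the searched motifs in capitals. Searched on both strands were the NF-κB (κB) consensus, the AP-1 motif TGANTCA, the PU.1 core GAGGAA and the TATA motif TATAAA.
Ccrl2, chr9:111057519-111057768, minus strand: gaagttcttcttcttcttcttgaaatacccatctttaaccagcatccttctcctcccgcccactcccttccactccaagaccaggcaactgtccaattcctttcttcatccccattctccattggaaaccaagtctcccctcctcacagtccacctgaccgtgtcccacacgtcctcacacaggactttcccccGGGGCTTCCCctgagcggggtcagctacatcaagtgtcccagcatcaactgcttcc
Cxcr4, chr1:128592300-128592549, minus strand: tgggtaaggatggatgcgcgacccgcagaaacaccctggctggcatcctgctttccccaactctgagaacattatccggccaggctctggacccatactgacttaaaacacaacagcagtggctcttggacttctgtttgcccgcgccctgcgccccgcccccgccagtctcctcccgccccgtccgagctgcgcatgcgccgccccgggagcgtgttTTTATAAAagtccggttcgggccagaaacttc
Ccr1, chr9:123968693-123968942, minus strand: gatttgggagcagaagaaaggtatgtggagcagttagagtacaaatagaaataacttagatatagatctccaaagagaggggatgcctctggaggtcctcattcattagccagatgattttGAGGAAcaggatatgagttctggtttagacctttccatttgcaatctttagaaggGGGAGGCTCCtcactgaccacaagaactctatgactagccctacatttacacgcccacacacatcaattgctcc
This Ccrl2 start has a κB match, GGGGCTTCCC, at −56 to −47 from the start site, which reads as a match on both strands. The other 2 annotated Ccrl2 starts lie downstream and hold none of the 4 motifs in their windows. Cxcr4 has TATAAA at −30 to −25, with an overlapping match of the opposite strand at −32 to −27. Ccr1 has GAGGAA at −129 to −124 and a κB match, GGGAGGCTCC, at −74 to −65. The windows of Ccr2 and Cx3cr1 hold none of the 4. Among all 32851 promoter windows of this length, 7.25% hold the κB consensus, 6.75% the AP-1 motif, 23.3% the PU.1 core and 12.4% TATAAA. A match describes the letters, and whether a factor binds there was not tested.

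In littermate MEFs TNFα raised Ccrl2 and Cxcr4, and Ccr1 was lower by a margin that not every setting kept. In SIMPL-/- MEFs none of the 5 genes passed the test in either direction. Ccrl2 was the member whose response differed between the genotypes at the threshold, an adjusted p under 0.05 in limma over all genes. After TNFα all 5 stood lower in SIMPL-/- MEFs, and without TNFα Cx3cr1, Ccr1 and Cxcr4 already did.

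Because the members were chosen with earlier results of these data known, their counts beside all genes are a description and not a test. They were as follows. In the TNFα response of SIMPL-/- MEFs 0 of 5 were higher and 0 lower, beside 1.73% and 1.39% of all genes. In that of littermate MEFs 2 were higher (Ccrl2 and Cxcr4) and 1 lower (Ccr1), beside 2.70% and 2.45% of all genes. In the difference between the responses 0 were higher and 1 lower (Ccrl2), beside 0.0953% and 0.441%. In the genotype difference after TNFα 0 were higher and 5 lower, beside 17.8% and 18.4%. Of all 23 measured receptors 6 were lower there. In that without TNFα 1 was higher (Ccrl2) and 3 lower (Cx3cr1, Ccr1 and Cxcr4), beside 23.3% and 17.6%. The genotype differences thus stand on a background where many genes were called in both directions. The TNFα response of littermate MEFs and the genotype difference after TNFα share the treated littermate arrays. With each array centred on its median the split of all calls moved, to 5927 higher and 2884 lower after TNFα (3557 and 3673 as deposited), 6573 and 3013 without it (4640 and 3511), and 401 and 152 in the SIMPL-/- response (345 and 278), while the counts of members stayed as they were.

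**Figure D1:**
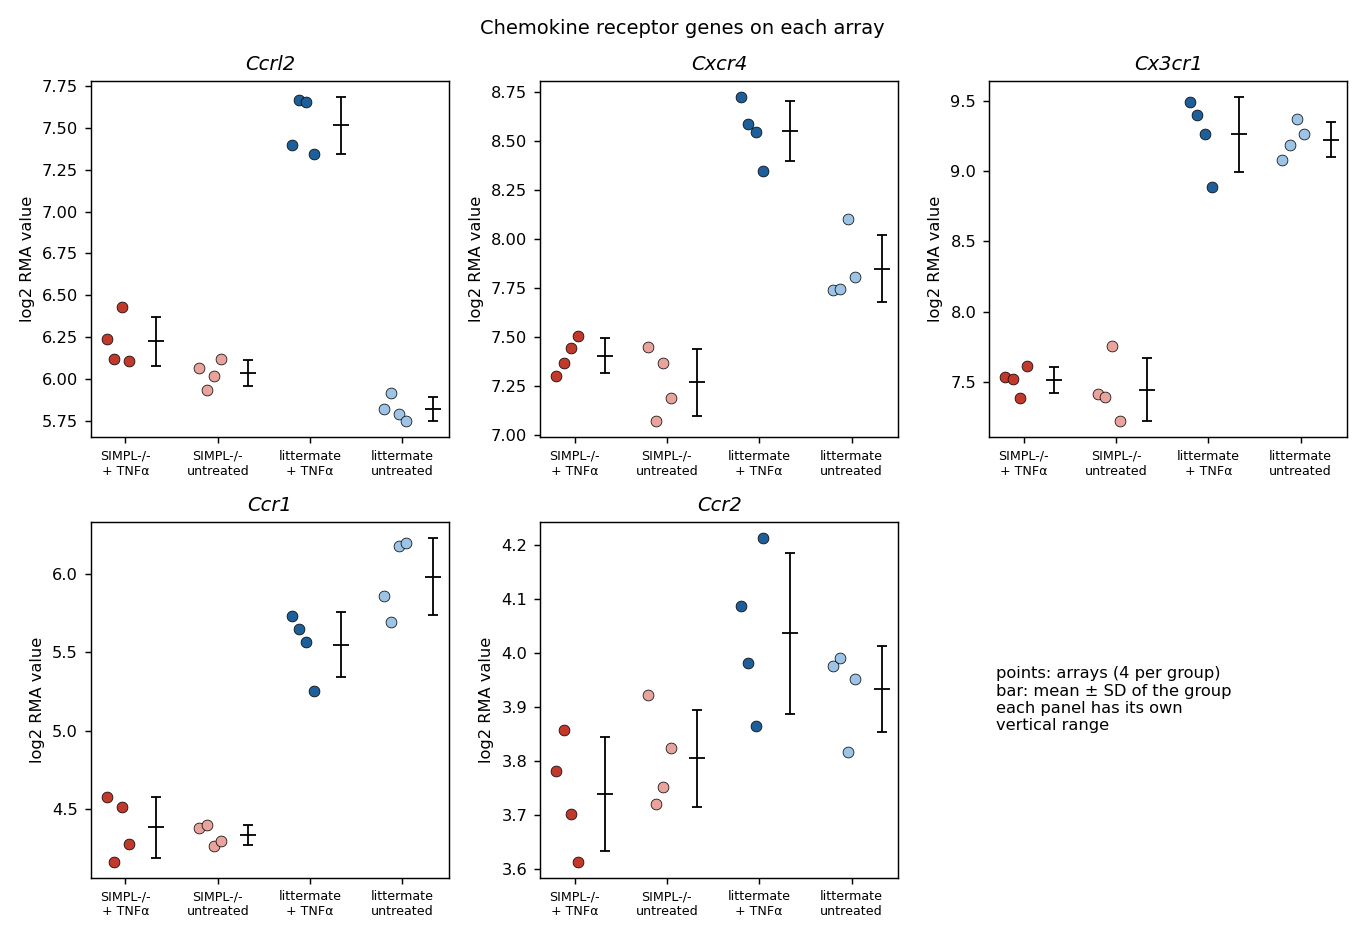
Log2 RMA values (vertical axis, its range set for each gene) of the 5 receptor genes on each array, with points for the 4 arrays of each of the 4 groups and bars for the group mean ± SD. Ccrl2 on the littermate TNFα arrays, at 7.35 to 7.66, stands above all other arrays, while Cx3cr1 splits by genotype.

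Ccrl2 responded to TNFα in littermate MEFs and hardly in SIMPL-/- MEFs. On the SIMPL-/- TNFα arrays it had values of 6.24, 6.12, 6.43 and 6.11, and on the untreated SIMPL-/- arrays 6.06, 5.93, 6.01 and 6.12. On the littermate TNFα arrays it had 7.40, 7.66, 7.65 and 7.35, and on the untreated littermate arrays 5.82, 5.91, 5.79 and 5.75. All 4 littermate TNFα arrays were high, and the treated and untreated SIMPL-/- arrays overlapped. The response was 0.19 (SE 0.08, adjusted p = 0.265, limma; higher in the mean, with a 95% interval of 0.02 to 0.36) in SIMPL-/- MEFs. In littermate MEFs it was 1.70 (SE 0.08, adjusted p = 3.81e-11), a 3.24-fold rise. The difference between the responses was −1.51 (SE 0.12, adjusted p = 1.59e-06), with a 95% interval of −1.75 to −1.26. It kept its direction and its call under each of the 8 other settings and with each of the 16 arrays left out in turn.

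After TNFα, Ccrl2 was 2.45-fold lower in SIMPL-/- than in littermate MEFs (log2 difference −1.29, adjusted p = 3.27e-10). Without TNFα the order was the other way, with all untreated SIMPL-/- arrays (5.93 to 6.12) above all untreated littermate arrays (5.75 to 5.91). That difference was 0.21 (adjusted p = 0.0454), and after quantile normalization it was 0.12 (adjusted p = 0.269). Leaving out array 12 brought it down furthest, to 0.19 (adjusted p = 0.118), and it also missed the threshold without array 1, 3, 4, 9, 11 or 13 and with trend and robust moderation (adjusted p = 0.0563). Mean levels were 6.22 ± 0.15 with and 6.03 ± 0.08 without TNFα in SIMPL-/- MEFs, against 7.52 ± 0.17 with and 5.82 ± 0.07 without it in littermate MEFs (SD, n = 4 each). From high to low the order was treated littermate, treated SIMPL-/-, untreated SIMPL-/- and untreated littermate MEFs, and the neighbouring SIMPL-/- groups were not separated beyond their spread. Of the 27 measured myeloid markers, 0 were called in the TNFα response of SIMPL-/- MEFs and 1 in that of littermate MEFs (Cybb, higher by 0.61). These counts are near the shares of all genes, 1.73% higher and 1.39% lower in SIMPL-/- MEFs and 2.70% and 2.45% in littermate MEFs. The part of the myeloid markers in the Ccrl2 response was not tested.

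**Figure D2:**
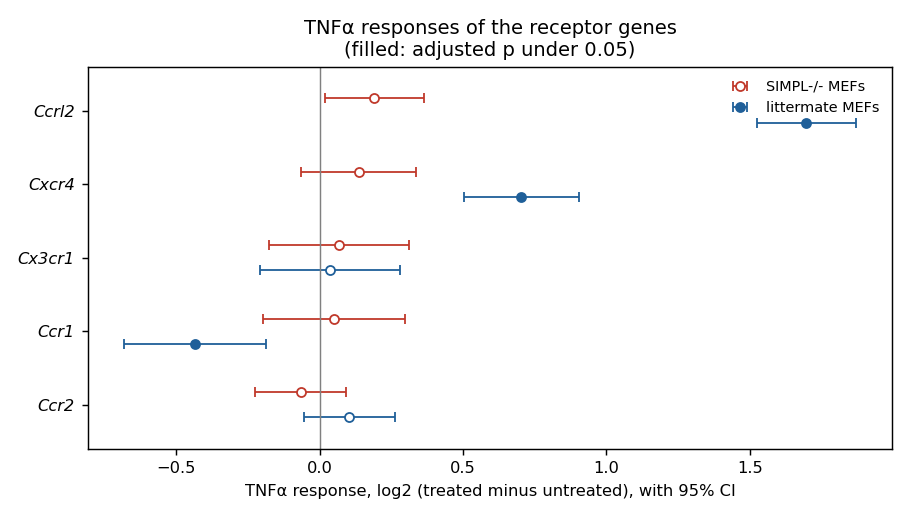
TNFα response of each receptor gene (horizontal axis, log2 treated minus untreated, with 95% confidence interval) in SIMPL-/- and littermate MEFs, filled where the adjusted p is under 0.05. Ccrl2 and Cxcr4 lie apart between the genotypes, at 0.19 and 0.14 in SIMPL-/- and at 1.70 and 0.70 in littermate MEFs, while the intervals of Cx3cr1 overlap around 0. The test of the difference between the responses passed for Ccrl2 and missed the threshold for Cxcr4 (adjusted p = 0.0749, limma).

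Cxcr4 showed a smaller response of the same direction. Its values were 7.30, 7.36, 7.44 and 7.50 on the SIMPL-/- TNFα arrays and 7.45, 7.07, 7.37 and 7.19 on the untreated SIMPL-/- arrays. On the littermate TNFα arrays they were 8.72, 8.59, 8.55 and 8.35, and on the untreated littermate arrays 7.74, 7.74, 8.10 and 7.80. Every littermate TNFα array was above every untreated littermate array, the treated and untreated SIMPL-/- arrays overlapped, and the 2 genotypes did not overlap in either condition. The response was 0.14 (SE 0.10, adjusted p = 0.549, limma) in SIMPL-/- MEFs. In littermate MEFs it was 0.70 (SE 0.10, adjusted p = 8.11e-05), a 1.63-fold rise. The difference between the responses was −0.57 (SE 0.14, adjusted p = 0.0749; 95% interval −0.85 to −0.28) and missed the threshold, which it passed when dim genes were left out (adjusted p = 0.0458), with trend and robust moderation (adjusted p = 0.0195), with array weights (adjusted p = 0.034) and without array 3, 8 or 10 (lowest adjusted p = 0.0214, without array 3). Cxcr4 was 2.21-fold lower in SIMPL-/- than in littermate MEFs after TNFα (−1.15, adjusted p = 1.4e-08) and 1.49-fold lower without it (−0.58, adjusted p = 8.67e-05). Mean levels were 7.40 ± 0.09 with and 7.27 ± 0.17 without TNFα in SIMPL-/- MEFs, against 8.55 ± 0.16 and 7.85 ± 0.17 in littermate MEFs with and without it (SD, n = 4 each). The order was treated littermate, untreated littermate, treated SIMPL-/- and untreated SIMPL-/- MEFs, of which the SIMPL-/- groups were not separated beyond their spread.

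Cx3cr1, the macrophage-associated receptor of fractalkine, differed by genotype and passed no test of TNFα. It had 7.53, 7.52, 7.39 and 7.61 on the SIMPL-/- TNFα arrays and 7.41, 7.39, 7.75 and 7.22 on the untreated SIMPL-/- arrays. The littermate TNFα arrays gave 9.49, 9.40, 9.26 and 8.89, and the untreated littermate arrays 9.08, 9.19, 9.37 and 9.26. All SIMPL-/- arrays were low and all littermate arrays high, and treated and untreated arrays overlapped within each genotype. Cx3cr1 was 3.36-fold lower in SIMPL-/- MEFs after TNFα (−1.75, SE 0.12, adjusted p = 5.92e-10, limma) and 3.44-fold lower without it (−1.78, SE 0.12, adjusted p = 5.46e-10). The responses were 0.07 (adjusted p = 0.848) in SIMPL-/- and 0.04 (adjusted p = 0.924) in littermate MEFs, with 95% intervals of −0.18 to 0.31 and −0.21 to 0.28, and their difference was 0.03 (adjusted p = 0.957). Mean levels were 7.51 ± 0.09 with and 7.44 ± 0.22 without TNFα in SIMPL-/- MEFs, against 9.26 ± 0.27 with and 9.22 ± 0.12 without it in littermate MEFs (SD, n = 4 each). The order was that of Cxcr4, and within each genotype the neighbours lay inside each other's spread.

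Ccr1, the receptor of Ccl3 and Ccl5, was likewise low in SIMPL-/- MEFs. It had 4.58, 4.16, 4.51 and 4.27 on the SIMPL-/- TNFα arrays and 4.38, 4.40, 4.26 and 4.29 on the untreated SIMPL-/- arrays. The littermate TNFα arrays gave 5.73, 5.65, 5.57 and 5.25, and the untreated littermate arrays 5.86, 5.70, 6.18 and 6.20. The genotypes did not overlap in either condition, and treated and untreated arrays overlapped in both genotypes. Ccr1 was 2.25-fold lower in SIMPL-/- than in littermate MEFs after TNFα (−1.17, SE 0.12, adjusted p = 1.76e-07, limma) and 3.15-fold lower without it (−1.65, SE 0.12, adjusted p = 1.76e-09). Its response was 0.05 (adjusted p = 0.899) in SIMPL-/- MEFs. In littermate MEFs it was −0.43 (SE 0.12, adjusted p = 0.0371), which no longer passed with array weights (−0.40, adjusted p = 0.0537), in a fit of the compared arrays alone (adjusted p = 0.0991), by the methods' t-test with Benjamini-Hochberg adjustment (adjusted p = 0.275), or without array 3, 4, 7 or 8 (highest adjusted p = 0.138, without array 8). The difference between the responses was 0.48 (adjusted p = 0.235). Mean levels were 4.38 ± 0.20 with and 4.33 ± 0.07 without TNFα in SIMPL-/- MEFs, against 5.55 ± 0.21 with and 5.99 ± 0.25 without it in littermate MEFs (SD, n = 4 each). The order was untreated littermate, treated littermate, treated SIMPL-/- and untreated SIMPL-/- MEFs, and the SIMPL-/- groups were not separated.

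Ccr2, the monocyte receptor of Ccl2, was dim and nearly level. It had 3.78, 3.86, 3.70 and 3.61 on the SIMPL-/- TNFα arrays and 3.92, 3.72, 3.75 and 3.82 on the untreated SIMPL-/- arrays. The littermate TNFα arrays gave 4.09, 3.98, 3.86 and 4.21, and the untreated littermate arrays 3.98, 3.99, 3.81 and 3.95. After TNFα the groups touched, with the highest SIMPL-/- array and the lowest littermate array equal to 2 decimals, and without TNFα the genotypes overlapped. The gene was lower in SIMPL-/- MEFs after TNFα (−0.30, SE 0.08, adjusted p = 0.00393, limma; by the methods' t-test adjusted p = 0.0575), and without TNFα the difference was −0.13 (adjusted p = 0.178). TNFα responses of −0.07 (adjusted p = 0.748) in SIMPL-/- and 0.10 (adjusted p = 0.548) in littermate MEFs did not pass, nor did their difference (−0.17, adjusted p = 0.516). Mean levels were 3.74 ± 0.10 with and 3.80 ± 0.09 without TNFα in SIMPL-/- MEFs, against 4.04 ± 0.15 with and 3.93 ± 0.08 without it in littermate MEFs (SD, n = 4 each). From high to low the order was treated littermate, untreated littermate, untreated SIMPL-/- and treated SIMPL-/- MEFs, with no neighbours apart beyond their spread. The mean levels of Ccr1 and Ccr2 over all arrays lie below the 30th percentile of genes, the dimmest part of the table.

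Among the marker lists the myeloid one moved most with genotype, and its part in the receptor differences was not tested. Of 27 myeloid markers, 26 were lower in SIMPL-/- MEFs both after TNFα (median −2.34) and without it (median −2.28), where the largest differences were those of Mrc1 (−3.42), Mpeg1 (−3.33), Cd68 (−2.96) and C1qc (−2.84). The exception was Clec7a (0.12 after TNFα, adjusted p = 0.246, and 0.06 without it, adjusted p = 0.543). The other lists are read beside the 17.8% of all genes higher and 18.4% lower after TNFα and the 23.3% and 17.6% without it. Neutrophil and mast cell markers had 0 higher and 4 lower of 14 after TNFα and 1 higher and 3 lower without it, lymphoid markers 1 higher of 9 in both conditions, and endothelial markers 3 higher and 2 lower of 10 after TNFα and 4 higher without it. Of the 14 fibroblast markers 3 were higher and 9 lower in both conditions, among them, without TNFα, the proteoglycan genes Lum (−2.87) and Dcn (−1.02) and, in the other direction, S100a4 (1.69) and Thy1 (0.73). The median of the neutrophil and mast cell list without TNFα, 0.05, was −0.04 after quantile normalization, which also left no lymphoid marker called in that condition. With each array centred on its median, the fibroblast list had 5 higher and 8 lower after TNFα and 5 higher and 9 lower without it, the neutrophil and mast cell list 1 and 2 after TNFα and 3 and 3 without it, and the lymphoid list 2 higher in both conditions.

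**Figure D3:**
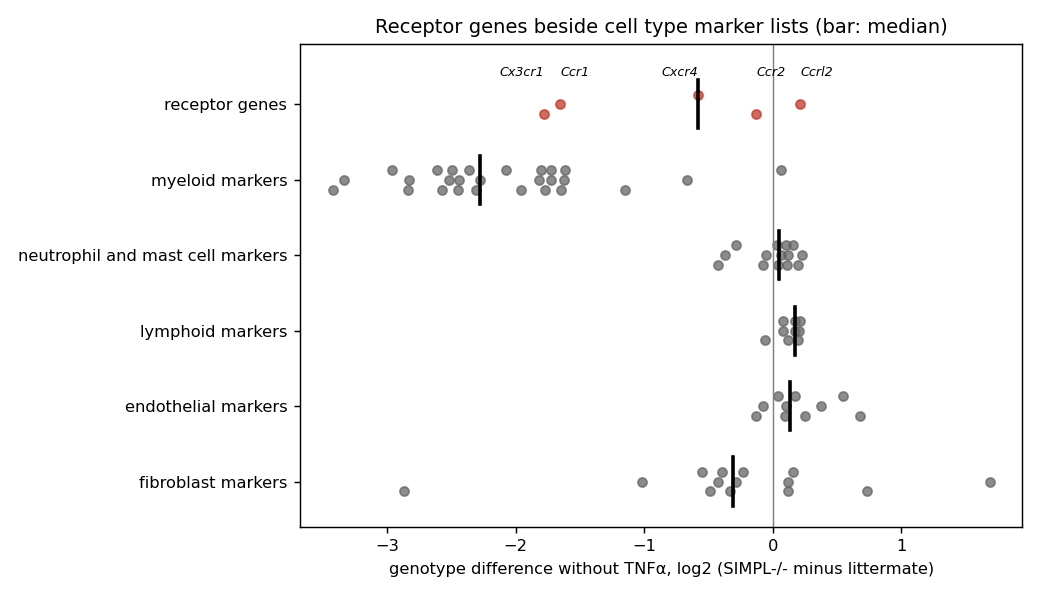
Genotype difference without TNFα (horizontal axis, log2 SIMPL-/- minus littermate) of the 5 receptor genes and of the members of 5 cell type marker lists, with each point a gene and the bar the median of its list. The myeloid markers run from −3.42 to 0.06 with a median of −2.28, and the upper end is Clec7a, which was not called. Cx3cr1 (−1.78) and Ccr1 (−1.65) lie among the other myeloid markers. Cxcr4 (−0.58), Ccr2 (−0.13) and Ccrl2 (0.21) lie above all of those.

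Beyond the members, 5 other chemokine receptors were called in at least 1 genotype comparison. None of the 23 measured receptors responded to TNFα in SIMPL-/- MEFs, and in littermate MEFs the 3 that did were members described above. Of all genes 1.73% rose and 1.39% fell in SIMPL-/- MEFs, and 2.70% and 2.45% in littermate MEFs. After TNFα 2 receptors were higher and 6 lower in SIMPL-/- MEFs, beside 17.8% and 18.4% of all genes. Without TNFα 5 were higher and 4 lower, beside 23.3% and 17.6%, and both counts are near those shares. The list medians were 0.03 in both conditions, beside 0.03 and 0.07 over all genes. Ackr3, an atypical receptor that also binds Cxcl12, was lower in SIMPL-/- MEFs after TNFα (−0.31, adjusted p = 0.0018, limma) and without it (−0.56, adjusted p = 5.1e-06), close to the −0.58 of Cxcr4. Cxcr6, the receptor of Cxcl16, was higher after TNFα (0.44, adjusted p = 0.00068) and without it (0.39, adjusted p = 0.0021), as was Ackr4, a scavenger of Ccl19 and Ccl21 (0.18 and 0.19). Xcr1 (0.34, adjusted p = 0.034, groups overlapping) and Ackr1 (0.22, adjusted p = 0.0088) were higher without TNFα. The counts of higher receptors depend on the scaling. With each array centred on its median they became 5 after TNFα and 8 without it (list medians 0.10 and 0.08). After quantile normalization 1 was higher and 6 lower without TNFα (list median −0.07), and Xcr1, Ackr1 and Ackr4 (also after TNFα) no longer passed.

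**Figure D4:**
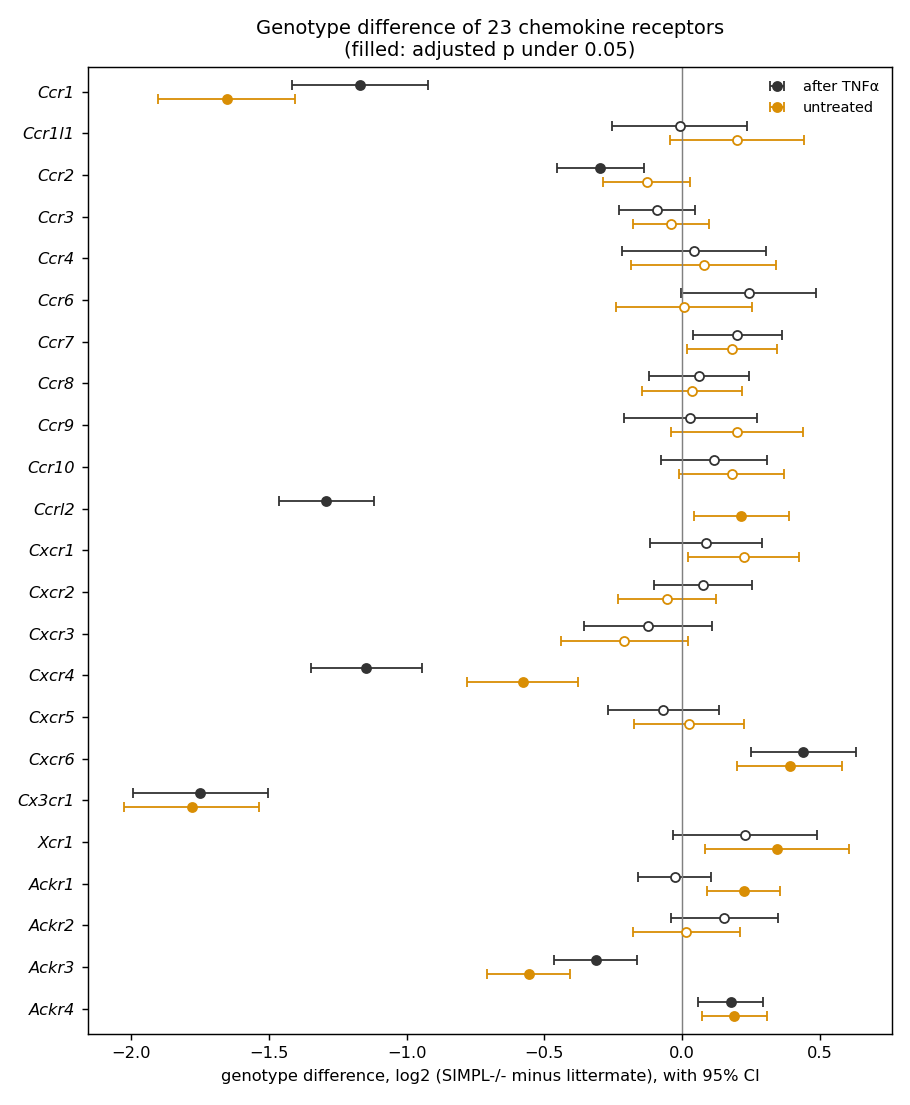
Genotype difference (horizontal axis, log2 SIMPL-/- minus littermate, with 95% confidence interval) of the 23 measured chemokine receptors after TNFα and in untreated MEFs, filled where the adjusted p is under 0.05. Cx3cr1, Ccr1 and Cxcr4 lie left of 0 in both conditions and Ccrl2 after TNFα (−1.29), and Ackr3 lies beside Cxcr4 without TNFα (−0.56 and −0.58).

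TNFα raised several ligands of these receptors in both genotypes. Of the 13 measured ligands 3 rose in SIMPL-/- MEFs and 6 in littermate MEFs, beside 1.73% and 2.70% of all genes. None fell, beside 1.39% and 2.45%. Ccl5, a ligand of Ccr1, gave 0.27 in SIMPL-/- (adjusted p = 0.0815, limma) and 0.28 in littermate MEFs (adjusted p = 0.0527) and missed the threshold in both. After quantile normalization it passed in SIMPL-/- MEFs (0.32, adjusted p = 0.0392), where 4 ligands then rose. Ccl2, the ligand of Ccr2, rose by 3.21 in SIMPL-/- and by 3.38 in littermate MEFs, and Ccl7, which binds Ccr1 and Ccr2, by 2.15 and 2.58. Cx3cl1, the fractalkine of Cx3cr1, rose by 0.44 and 0.78 and was higher in SIMPL-/- MEFs after TNFα (0.53) and without it (0.88), the opposite direction from its receptor. The difference between the responses was −0.42 for Ccl7 (adjusted p = 0.0164, limma) and −0.35 for Cx3cl1 (adjusted p = 0.047), and −0.17 for Ccl2. With each array centred on its median that of Cx3cl1 was −0.32 (adjusted p = 0.0867) and no longer passed. In littermate MEFs the Ccr1 ligands Ccl3 (0.80, adjusted p = 0.00118) and Ccl9 (0.65, adjusted p = 0.000183) rose as well, as did Ccl19 (0.39, adjusted p = 0.00299), and in SIMPL-/- MEFs they gave −0.03, 0.18 and 0.07. Their differences between the responses, −0.83 for Ccl3 (adjusted p = 0.0727), −0.47 for Ccl9 (adjusted p = 0.151) and −0.33 for Ccl19 (adjusted p = 0.205), missed the threshold. Ccl19 is read by 5 probe sets and lies in a family of near-identical copies in the mouse, so its value is uncertain.

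**Figure D5:**
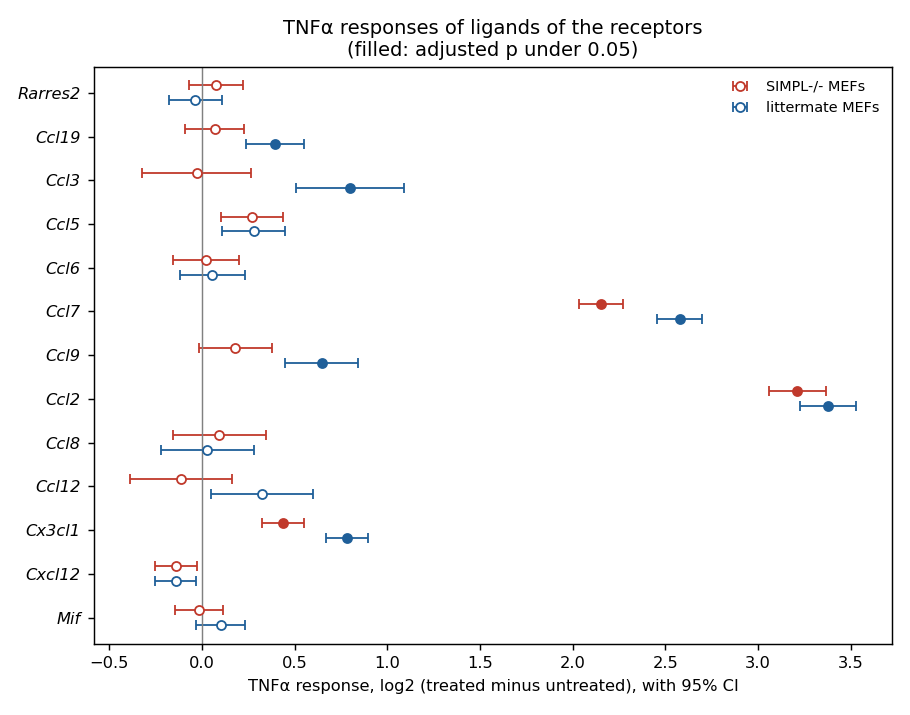
TNFα response (horizontal axis, log2 treated minus untreated, with 95% confidence interval) of 13 ligands of the receptor genes in SIMPL-/- and littermate MEFs, filled where the adjusted p is under 0.05. Ccl2 (3.21 and 3.38) and Ccl7 (2.15 and 2.58) rose in both genotypes, and Ccl3 and Ccl9 passed the test in littermate MEFs alone.

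By genotype, 1 of the 13 ligands was higher and 9 were lower in SIMPL-/- MEFs after TNFα, beside 17.8% and 18.4% of all genes. Without it 3 were higher and 6 lower, beside 23.3% and 17.6%, so the count of higher ligands is near its share. With each array centred on its median 3 were higher and 7 lower after TNFα, Mif (0.17, adjusted p = 0.0307) and Rarres2 joining those higher. Ccl3 stood at 6.23 ± 0.19 in TNFα treated and 6.26 ± 0.20 in untreated SIMPL-/- MEFs, against 9.48 ± 0.23 and 8.68 ± 0.28 in littermate MEFs with and without TNFα (SD, n = 4 each). Its differences were −3.25 and −2.42. Ccl12 (−1.93 and −1.49), Ccl9 (−1.58 and −1.12), Cxcl12, the ligand of Cxcr4 (−1.03 in both), Ccl6 (−0.97 and −0.93) and Ccl5 (−0.36 and −0.35) were also lower after TNFα and without it. After TNFα Ccl19 (−0.28), Ccl2 (−0.23) and Ccl7 (−0.15) were lower, of which Ccl2 (−0.16, adjusted p = 0.106) and Ccl7 (−0.08, adjusted p = 0.287) no longer passed with each array centred on its median, and without it Ccl7 (0.28) and Mif (0.22, read by 3 probe sets), a ligand of Cxcr4, were higher. The chemerin gene Rarres2, whose product Ccrl2 binds, did not pass in any comparison of the values as deposited (0.17 after TNFα, adjusted p = 0.0545), and after TNFα it passed with each array centred on its median (0.25, adjusted p = 0.00781). Both signalling receptors of chemerin were higher in SIMPL-/- MEFs, Cmklr1 by 0.81 after TNFα and 0.92 without it and Gpr1 by 0.49 and 0.24 (0.14 and no longer passing without TNFα after quantile normalization), and neither responded to TNFα.

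Downstream of the receptors, 24 of 25 listed genes of G protein, arrestin and Rac signalling were measured. In SIMPL-/- MEFs after TNFα 5 were higher and 14 lower, beside 17.8% and 18.4% of all genes. Without TNFα 5 were higher and 13 lower, beside 23.3% and 17.6%. The largest differences without TNFα were those of the Rac activators Dock2 (−2.16) and Vav1 (−1.92), the kinase subunit Pik3cg (−1.62) and the Dock partner Elmo1 (−1.48), of which the first 3 are best known from blood cells. In the TNFα responses 1 of the 24 was higher and 0 were lower in SIMPL-/- MEFs, beside 1.73% and 1.39% of all genes. In littermate MEFs 2 were higher and 1 was lower, beside 2.70% and 2.45%. Rgs16, which shortens G protein signals, rose by 1.11 in SIMPL-/- and by 1.68 in littermate MEFs, and these responses differed (−0.58, adjusted p = 0.00209, limma). Rgs2, of the same gene family, went the other way in littermate MEFs (−0.94, adjusted p = 1.01e-05). In SIMPL-/- MEFs it gave −0.27 (adjusted p = 0.224), and the difference between its responses, 0.67, missed the threshold (adjusted p = 0.0587).

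The members did not share a single pattern over the 16 arrays. Pearson's r, given as a description because arrays of a group share their condition, was 0.95 between Ccr1 and Cx3cr1, 0.86 between Cx3cr1 and Cxcr4, 0.78 between Ccrl2 and Cxcr4 and 0.21 between Ccrl2 and Ccr1. The genes most like Ccrl2 were Cebpd (r = 0.974), Cd69 (0.966), Nlrp3 (0.957), Cdkn2b (0.956) and Gbp5 (0.951), among them an NLR inflammasome sensor (Nlrp3) and a lymphocyte and myeloid activation antigen (Cd69). Those most like Cx3cr1 were Ptpn6, Sirpa and Tyrobp (r = 0.994 each), which act in myeloid inhibitory and activating receptor signalling. Cxcr4 was most like Ptafr (0.990), Ccl9 (0.972) and Igsf6 (0.969), and Ccr1 most like Klhl6 (0.973), St8sia4 (0.973) and Auts2 (0.972). Ccr2, with little variation of its own, reached only 0.901 with Scube2, 0.889 with Emid1 and 0.889 with Col25a1.

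On the mouse genome 4 of the 5 genes lie on chromosome 9, which also holds Irak1bp1, and Cxcr4 lies on chromosome 1. Between Irak1bp1 and them are 280 measured genes for Ccrl2, 339 for Cx3cr1, 398 for Ccr1 and 401 for Ccr2. The strain is a mixed one, and whether the chromosome around the mutated gene differs between the genotypes was not tested. Ccrl2 sits between Ltf and Lrrfip2. Of the 20 measured genes around it none was called in the TNFα response of either genotype. The shares of all genes were 1.73% higher and 1.39% lower in SIMPL-/- and 2.70% and 2.45% in littermate MEFs, and the count is near them. By genotype 1 was higher and 2 lower in SIMPL-/- MEFs after TNFα, and 3 were higher and 1 lower without it. These counts are below the shares of all genes, 17.8% higher and 18.4% lower after TNFα and 23.3% and 17.6% without it. Ccr1 and Ccr2 lie in a cluster of receptor genes with Ccr1l1, Ccr3, Xcr1 and Cxcr6. Of the 10 measured genes before that cluster 1 was lower in the SIMPL-/- response, beside 1.39% of all genes. In the genotype comparisons 1 was lower in SIMPL-/- MEFs after TNFα and 2 were higher without it, again below the shares of all genes. Xcr1 and Cxcr6 in the cluster were higher where Ccr1 was lower in untreated SIMPL-/- MEFs.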

How the data were processed

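Gene expression was measured on 16 arrays, 4 in each of 4 groups set by the sample titles. The deposited log2 values were made by the authors with RMA in Partek (versions not given) per the submitters' notes, while the methods name Affymetrix Microarray Suite. RMA equalises the arrays' distributions, which evens out total signal and compresses low values.

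Of 28853 probe sets, 21789 have 1 gene symbol, 1621 have several (left out) and 5443 are unnamed in the platform annotation, giving 19938 genes. Where a gene had several probe sets (999 genes), that with the highest mean was used. With R 4.3.3 and limma 3.58.1, group means were fitted to all 16 arrays (12 residual and 6.19 prior degrees of freedom), and 5 contrasts were tested two-sided with Benjamini-Hochberg adjustment over all genes. The procedure was tested on simulated data. The median within-group SD of a gene was 0.0890 to 0.103, and precision is limited by the number of arrays.

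The members and the gene lists (receptors, ligands, chemerin receptors, signalling and 5 sets of cell type markers) were chosen with earlier results of these data known. Named were the members, every other receptor, ligand or chemerin receptor called in a contrast, the genes most correlated with a member, and up to 4 signalling or marker genes per list with large differences. Cybb, Clec7a, Rgs16, Rgs2 and Rarres2 were added after their values were seen. Alternatives were other scalings, a filter on dim genes, the mean of probe sets, other moderation, array weights, a fit on the compared arrays, the t-test of the methods (two-tailed and unpaired), the study's fold and p thresholds, and leaving out each array. The 2 other scalings of the ligand, signalling and marker lists were chosen after seeing the data.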

Additional observations from a re-analysis of the deposited data

Results flagged for a closer look

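Among the listed receptors, ligands, chemerin receptors and signalling genes, the TNFα responses of the 2 genotypes differed in the test of the difference itself for 4. They were Ccrl2 (−1.51, adjusted p = 1.59e-06, limma), the signalling regulator Rgs16 (−0.58, adjusted p = 0.00209), and the ligands Ccl7 (−0.42, adjusted p = 0.0164) and Cx3cl1 (−0.35, adjusted p = 0.047, which did not pass with each array centred on its median). Each is the response in SIMPL-/- MEFs minus that in littermate MEFs, and Ccrl2 is the only chemokine receptor among them. Outside those lists, Cebpd, Cd69, Nlrp3, Cdkn2b and Gbp5 also had smaller responses in SIMPL-/- MEFs, as did Ptafr. Their adjusted p ran from 6.11e-05 (Cd69) to 0.0148 (Nlrp3). They were named for their likeness to Ccrl2 or Cxcr4 on these same arrays, so this is no separate evidence.

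In a check of single arrays with Dixon's ratio, over 24 groups of 4 arrays (the 5 members and Irak1bp1 in each group), 1 array stood apart. Irak1bp1 on the littermate TNFα array numbered 5, at 7.65, lay below the other 3 of its group with a ratio of 0.881, above the 95% critical value, and chance alone gives about 1 such case in 20 groups.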

How the results depend on the processing

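For the 5 receptor genes, the genotype differences of Cx3cr1, Ccr1 and Cxcr4 and, after TNFα, of Ccrl2 kept their direction and side of the threshold under the 8 other scalings, filters and tests and with each array left out, as did the Ccrl2 and Cxcr4 responses in littermate MEFs and the Ccrl2 difference between the responses. No paired analysis was possible because the arrays carry no pairing. Leaving out dim genes took Ccr1 and Ccr2 out of the test, so 7 remain for these.

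With array weights the Ccr1 response in SIMPL-/- MEFs was −0.0104, and leaving out each array gave −0.0153 to 0.122. Near 0 too, the Cx3cr1 responses were −0.00577 to 0.171 in SIMPL-/- and −0.0410 to 0.160 in littermate MEFs, with a difference of −0.0921 to 0.134. The Ccr1 response in littermate MEFs lost its call at −0.396 with array weights, and at −0.434 both with the compared arrays alone and by the methods' t-test, and ran from −0.530 to −0.335 over the arrays left out. The Cxcr4 difference between the responses passed at −0.568 with dim genes left out and with trend and robust moderation, and with array weights at −0.593, and ran from −0.652 to −0.509. After TNFα the Ccr2 genotype difference, −0.298, lost its call by the methods' t-test. Without TNFα, that of Ccrl2 lost its call at 0.116 after quantile normalization and at 0.214 with trend and robust moderation, and ran from 0.185 to 0.247, while that of Ccr2 gained one at −0.214 after quantile normalization. The cause of these changes was not tested.

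Of the 23 receptors, the number lower in the littermate response was 1, and 0 with array weights, with dim genes left out, by the methods' t-test, with the compared arrays alone or a fold over 1.5 with p under 0.001, and 0 to 1 over the arrays left out. The number with a smaller response in SIMPL-/- MEFs was 1, and 2 with dim genes left out, trend and robust moderation or array weights, and 1 to 2 over the arrays left out. After TNFα 2 receptors were higher in SIMPL-/- MEFs, and 5 with median centring, 4 with array weights, 1 with dim genes left out or with trend and robust moderation, and 0 by fold and p. Without TNFα 5 were higher, and 8 with median centring, 1 after quantile normalization or with dim genes left out, 3 with trend and robust moderation and 0 by fold and p, and 3 to 6 over the arrays left out, 3 without array 1. The number lower without TNFα was 4, and 2 by fold and p, under which Cxcr4, at 1.49-fold, was not counted.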
